A study of Mus musculus with 10 samples.

Results

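The mouse array used in this study carried a set of probes that its maker designed for long intergenic non-coding RNAs (lincRNAs). They were taken as the non-control probes whose name begins A_30_P and whose sequence name is not a RefSeq non-coding accession (NR_). This gave 4460 of the array's 56605 non-control probes, and 0 probes of that name series had to be left out for an NR_ accession. Each probe was followed in testes of 10 male C57BL/6N mice aged 6 weeks, 1 testis and 1 array per animal. The 5 C-offspring were born to dams with free access to powdered chow and stayed with their own mothers. The 5 R-offspring were born to dams that were fed 50% of what the control dams ate on average each day from 6.5 days post coitum, and unrelated control females nursed them. All offspring had free access to chow after weaning. Diet in utero and fostering therefore differed together between the groups and cannot be told apart. Which animals were litter mates is unknown, and the p-values count each of the 10 as an independent animal.

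LincRNAs are transcripts longer than most small RNAs that are spliced and often polyadenylated like messenger RNA but hold no long reading frame. Most were first found as stretches of active chromatin and transcription between protein-coding genes. As a class they are weaker and more tissue-restricted than messenger RNAs, and meiotic and post-meiotic germ cells of the testis are known for transcribing many of them. A few have well studied roles: Neat1 forms the scaffold of nuclear paraspeckles, Tug1 takes part in gene silencing and was first described in retina, and Kcnq1ot1 silences imprinted genes in its neighbourhood from the paternal allele.

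Almost all of these probes, 4450, were named by a genomic interval and strand of build mm9 and 10 by a gene. The intervals numbered 3230 and ran from 0.062 to 538 kb with a median of 10.6 kb. F in an interval's name is read here as forward and R as reverse strand. The 10 gene names were TSIX, PINC, lincP21, XIST, KCNQ1ot1, H19, NEAT1, HOTAIR, NRON and TUG1, all known long non-coding RNAs. Whether the intervals lie between genes, and whether a probe matches more than 1 place, was not checked, since no genome of that build and no probe sequences were used here.

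Of the 10 gene names, 9 matched a RefSeq symbol and 5 had a promoter in the RefSeq table of GRCm38.p6. Among those 5, only KCNQ1ot1 and TUG1 had a tested probe, so their promoters are shown as the non-coding genes for which both a start site and a measurement were at hand. Each runs from 250 bases before to 50 after the transcription start, 5' to 3' on the minus strand, at chr11:3648765-3649064 for Tug1 and chr7:143296498-143296797 for Kcnq1ot1. Capitals mark the motifs GGGCGG and CCAAT, searched on both strands, which share no base here.
Tug1: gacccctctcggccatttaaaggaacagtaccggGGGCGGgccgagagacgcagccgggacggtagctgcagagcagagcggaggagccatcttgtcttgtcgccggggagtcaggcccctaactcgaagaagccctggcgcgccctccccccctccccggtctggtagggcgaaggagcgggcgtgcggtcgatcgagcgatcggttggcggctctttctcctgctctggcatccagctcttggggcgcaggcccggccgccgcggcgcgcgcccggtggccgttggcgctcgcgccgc
Kcnq1ot1: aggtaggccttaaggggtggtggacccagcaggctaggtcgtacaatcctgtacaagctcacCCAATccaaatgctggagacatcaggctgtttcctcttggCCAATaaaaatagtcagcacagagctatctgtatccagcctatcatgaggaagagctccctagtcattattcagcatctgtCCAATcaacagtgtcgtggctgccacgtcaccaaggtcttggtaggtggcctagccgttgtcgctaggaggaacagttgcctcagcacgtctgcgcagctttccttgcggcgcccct
The Tug1 promoter was 71.3% G or C and held 1 GGGCGG and 0 CCAAT. Kcnq1ot1 was 53.3% G or C with 0 GGGCGG and 3 CCAAT. Over 32851 promoters of this length, 35.7% held GGGCGG and 37.4% CCAAT.

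Signal is given as log2 of the background-subtracted intensity minus the array's 75th percentile, so 0 is the brightness that 25% of the array's spots exceed. Brightness depends on the probe as well as on the transcript, and levels of different probes are not compared as amounts of RNA. The 10 arrays had 54.6 to 65.9% of non-control probes well above background. All 8 haploid germ cell markers, among them the protamines Prm1 and Prm2, were well above background on every array, as the label testis requires. Their summed signal was 1070 to 1270 in C and 1100 to 1240 in R, with 2 of the 8 called lower in R and 0 higher. Summed Sertoli cell markers ranged from 41.1 to 72.3 in C and from 26.0 to 28.8 in R, with 5 of 6 tested markers lower in R and Amh above background on no array. Spermatogonial markers summed to 6.88 to 10.3 in C and 4.61 to 5.38 in R, but of the 5 tested 2 were lower and 1 was higher. Macrophage markers summed to 2.40 to 3.61 in C and 1.57 to 2.38 in R, with 5 of 7 lower. Of the other types, 3 of 5 tested spermatocyte, 2 of 5 Leydig cell and 4 of 5 blood markers were lower, and 0 higher. Of 6 tested adipocyte markers 0 were called. In whole testis, fewer cells of a type and less RNA per cell cannot be told apart, and the part of these markers in the results on lincRNA probes was not tested. On the array of C replicate 2 the lincRNA probes stood apart from the other arrays, and values are given with and without it. C replicate 5 and R replicate 1 stand on opposite sides in the authors' deposited table to those their labels give, and results without both are also given.

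Most lincRNA probes gave little or no signal in 6-week testis. Over the 4460 probes, 1849 (41.5%) were well above background on none of the 10 arrays, 903 (20.2%) on 1 to 4, 1708 (38.3%) on 5 or more and 1247 (28.0%) on all 10. Among 29937 messenger RNA probes with RefSeq NM_ accessions, 73.1% were above background on 5 or more arrays. By array the detected share of lincRNA probes was 44.8, 35.3, 39.2, 34.9 and 36.8% in C and 44.3, 48.2, 35.5, 32.4 and 40.2% in R. The groups overlapped, at 38.2 ± 4.06% in C and 40.1 ± 6.40% in R (SD, n = 5 each). At the detection limit, the 97 probes above background on exactly 5 arrays had a median log2 signal of -4.85, and the 106 on 4 arrays, which were not tested, had -5.07.

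Detection by group was uneven among the dim probes. On 4 or 5 R arrays and at most 1 C array there were 24 probes (0.538%), and 3 (0.0673%) the other way round. The same counts over all non-control probes were not taken, so this is not read as particular to lincRNA probes. Only 2 probes were above background on all 5 R and 0 C arrays, and 0 on all 5 C and 0 R arrays. The first of these, chr8:19759348-19759959 on the reverse strand, was at least 2.30-fold brighter in R. For chr15:74476233-74476296, forward, the difference was at least 2.48-fold. Both entered the test through the R arrays alone, and no p is given for them. Both bounds set the R mean against the lowest signal well above background, or the probe's own signal where higher, on the C arrays.

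Among the 1708 lincRNA probes tested, 474 rose in R and 123 fell. A probe was called at an adjusted p under 0.05 in limma, with Benjamini-Hochberg adjustment over all 33851 tested probes. The shares were 27.8% higher and 7.20% lower, where all tested probes had 21.4% higher and 17.1% lower. With the study's added limit of a fold above 1.5 or under 0.66, 316 lincRNA probes were higher and 28 lower, against 11.0% and 4.65% of all tested probes. In 362 probes every R array was above every C array, and in 82 every R array was below. Over all tested probes such separation was seen in 17.7% and 13.7%. The median change over the tested lincRNA probes was 0.21 on the log2 scale, with quartiles of -0.07 and 0.60, and over all tested probes the median was 0.04.

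NM_ probes divided differently. Of all 21869 tested, 17% were higher and 21.6% lower, 5.47% and 6.12% by the study's limit, and 14.6% and 17.4% with separated groups. To compare at equal signal, they were placed in bins of 0.5 in mean log2 signal and weighted to the lincRNA probes' distribution. So weighted, they were called about as often, 35.6% against 35.0%, but with 15.7% higher and 19.9% lower and a median change of -0.02. The difference of the medians was 0.23. It is a description of these probe sets, with no test between them, and it was not confined to lincRNA probes. The 10274 tested probes of other names had 29.8% higher, 9.24% lower and a median of 0.20. Among these, the 1440 with NR_ accessions had 17.6% higher, 9.10% lower and 0.09.

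Rises predominated among dim lincRNA probes and not among bright ones. Below a log2 signal of -4, 20.0% of 414 probes rose and 1.69% fell, with a median change of 0.32. From -4 to -3, 35.7% of 395 rose and 1.77% fell. From -1 to 0 the shares were 26.7% and 17.4% of 161. At a log2 signal of 2 or more, 19% of 84 probes rose and 26.2% fell, with a median of -0.08. Over all the bins the medians of the NM_ probes ranged only from -0.06 to 0.01. Of NM_ probes, 11.1% rose and 13.3% fell below -4, and 15.9% and 17.4% from -4 to -3. Their shares were 17% and 26.6% from -1 to 0, and 18.4% and 16.3% at 2 or more. Because a dim probe could pass the filter through the group in which it was bright, these are counts over the probes that passed. Of 461 probes above background on 5 to 9 arrays 104 rose and 9 fell. Shares of NM_ probes or of all probes were not taken for this class, so its split is not read as particular to lincRNA probes. In this class 219 probes were above background on more R arrays and 183 on more C arrays. Of the 1247 above background on all 10, 370 (29.7%) rose and 114 (9.14%) fell. A separate fit to probes above background on all 10 arrays called 31.6% of these higher and 9.54% lower. NM_ probes of equal signal had 19.2% and 22.3% there.

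**Figure D1:**
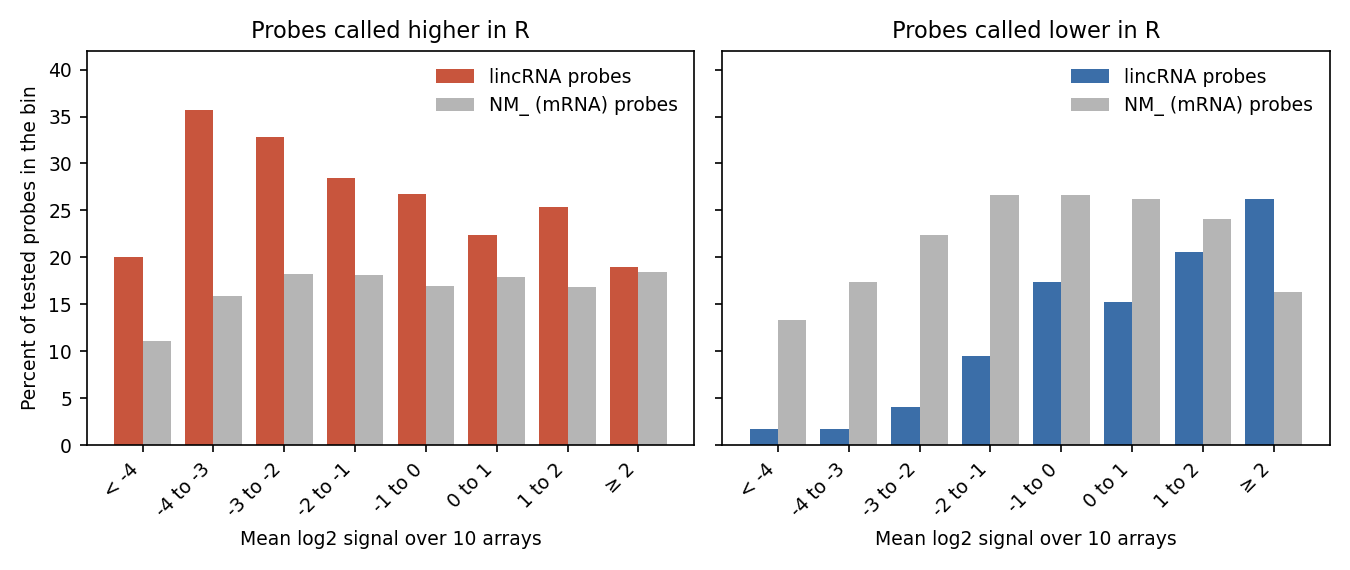
Percent of tested probes called higher (left) or lower (right) in R, by mean log2 signal over the 10 arrays, for lincRNA probes (coloured bars) and NM_ probes (grey bars). Among lincRNA probes the share lower grew from 1.69% in the dimmest bin to 26.2% in the brightest, while the share higher was largest, 35.7%, between -4 and -3.

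The split depended on the scaling and the filter. With each array's median as the reference, all tested probes shifted to a median of -0.16, and lincRNA probes split into 317 higher and 264 lower, beside 7.46% and 33.9% of NM_ probes of equal signal. Quantile normalisation gave 365 higher and 204 lower, beside 6112 and 7556 of all 33851 tested probes. Taking each array's median moves all probes of an array alike, so the difference of the medians between lincRNA and NM_ probes was 0.23 there by construction. It was 0.22 with quantile normalisation and 0.14 with normexp background correction. Over all 4460 probes with no filter it was 0.06, with medians of 0.22 and 0.16. There 419 lincRNA probes (9.39%) rose and 70 (1.57%) fell, beside 5334 and 3877 of all 56601 probes. The share that rose was thus close to that of all probes. NM_ probes of equal signal had 5.23% higher and 5.72% lower.

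Array by array, the groups did not overlap in the lincRNA probes' deviation. The median over the tested lincRNA probes of an array's difference from the probe's 10-array mean was -0.07, -0.30, -0.03, -0.05 and -0.07 in C and 0.13, 0.11, 0.07, 0.07 and 0.16 in R. C replicate 2 was the lowest array by far. NM_ probes of equal signal stayed between -0.06 and 0.03 on every array. Taking their value from that of the lincRNA probes left -0.11, -0.33, -0.05, -0.04 and -0.07 in C and 0.14, 0.09, 0.12, 0.13 and 0.14 in R. Without C replicate 2 the median change of the lincRNA probes was 0.16, with 517 probes higher and 107 lower. Of all 33851 tested probes 7378 were then higher and 5455 lower. Without R replicate 1, 304 lincRNA probes rose and 82 fell, beside 4949 and 4296 of all tested probes. Leaving out C replicate 5 and R replicate 1 together gave 200 and 53 with a median of 0.21, beside 3187 and 2929 of all tested probes.

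**Figure D2:**
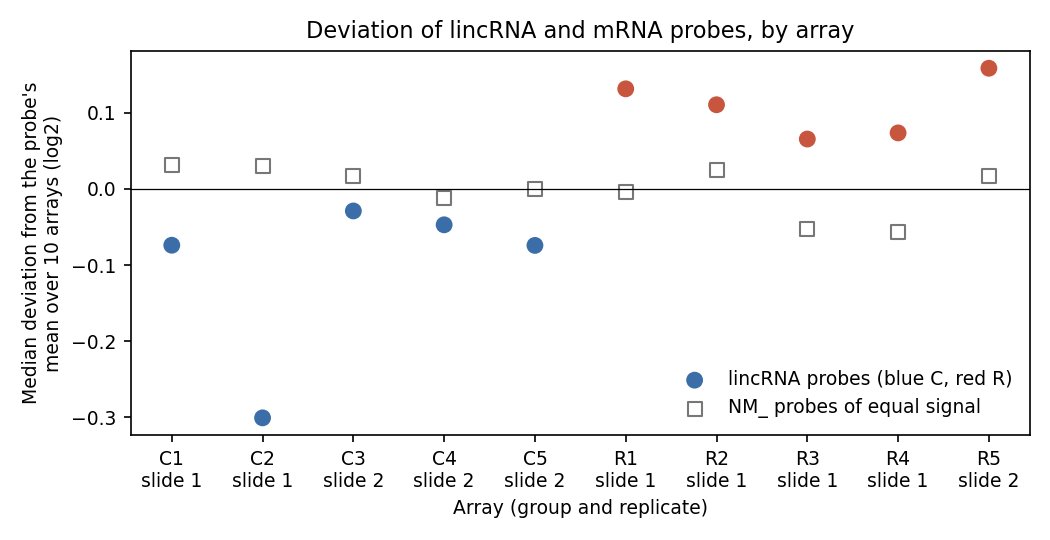
Median deviation (log2) of tested lincRNA probes (filled circles, blue C, red R) and of NM_ probes of equal signal (open squares) from each probe's mean over the 10 arrays, with the slide of each array under its name. The R arrays lie at 0.07 to 0.16 and the C arrays at -0.30 to -0.03, while the NM_ probes stay within -0.06 to 0.03.

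The arrays came from 2 slides, 1 with C replicates 1 and 2 and R replicates 1 to 4 and the other with C replicates 3 to 5 and R replicate 5. With slide as a block, 663 of the 1708 lincRNA probes rose and 163 fell, with a median of 0.26. Of all 33851 tested probes 10053 rose and 7800 fell there, so more calls were made over the whole array. Within slide 1 the counts were 452 and 114 with a median of 0.30, beside 7112 and 6081 of all tested probes. Within slide 2, where the single R array was assumed to vary like the C arrays, limma called 0, although 520 lincRNA probes had an unadjusted p under 0.05 and the median change was 0.18.

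Of the 10 largest rises, 3 came from neighbouring intervals on the X chromosome, whose 5 probes are described with the runs, and 2 from chromosome 2. The probe for chr10:18104309-18104881, forward, read -4.58, -6.35, -5.03, -5.19 and -5.20 in C and -3.24, -3.75, -2.05, -2.06 and -3.39 in R. All R arrays were above all C arrays, but only 1 of the 5 C arrays was above background. The change of 2.37 on the log2 scale is therefore set against a group mostly at background, and no interval or p is given for it. With normexp background correction, which adds an offset of 50 to every signal and so shrinks changes of dim probes, it was 1.01. The probe for chr2:181024098-181039073, reverse, read -2.92, -4.82, -3.01, -3.51 and -3.38 in C and -1.0, -1.32, -1.93, -1.61 and -1.55 in R. The groups did not overlap, and C replicate 2 was again the lowest. The rise was 4.13-fold (95% interval 2.47 to 6.91, limma adjusted p = 0.00282). On the log2 scale it was 2.05, between 1.72 and 2.20 without any 1 array, and 1.29 with normexp.

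A tighter rise was measured at chr3:96074625-96086375, reverse. There the C arrays read -3.40, -4.82, -3.82, -3.69 and -4.40 and the R arrays -2.48, -2.31, -1.94, -2.56 and -2.41, with no overlap. The fold was 3.21 (2.18 to 4.72, limma adjusted p = 0.00205). The change was 1.68, or 1.79 within slide 1, 1.55 within slide 2 and 0.96 with normexp. At chr16:23992037-24001037, forward, C read -3.43, -4.47, -3.65, -3.69 and -4.09 and R -1.79, -1.76, -2.31, -2.03 and -3.19. R replicate 5 was the lowest R array and still lay above all C arrays. The fold was 3.15 (2.02 to 4.90, limma adjusted p = 0.00341), but the change of 1.65 was 1.98 on slide 1, 0.62 on slide 2, which holds R replicate 5, and 1.04 with normexp. Over the 10 largest rises the change with normexp was 0.53 to 1.63, all still called, and in 6 the fold was more than 1.5 times smaller. In 8 of the 10 largest rises the groups did not overlap, where 17.7% of all tested probes had every R array above every C array. Picking the largest called changes favours such separation, so this count only describes the 10 probes. The exceptions were chr18:69923410-69965360, forward, where R replicate 5 at -2.51 lay below C replicate 1 at -2.49, and chr19:5834117-5835940, reverse, where R replicates 4 and 5 at -1.92 and -1.95 lay below C replicate 1 at -1.90. Whether the chromosome 19 interval lies at Neat1 was not checked.

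The largest falls included 2 neighbouring probes on chromosome 17 with little spread. The probe for chr17:39982023-39983277, forward, read 3.66, 3.75, 3.66, 3.61 and 3.55 in C and 2.41, 2.58, 2.58, 2.68 and 2.59 in R. It was 2.11-fold lower in R (1.90 to 2.35, limma adjusted p = 0.000197), the smallest adjusted p among the lincRNA probes. The next interval, chr17:39980973-39981876 on the opposite strand, read 0.85, 0.70, 0.67, 0.66 and 0.53 in C and -0.31, -0.18, -0.08, 0.05 and -0.18 in R. In neither did the groups overlap, and the second was 1.77-fold lower in R (1.55 to 2.01, limma adjusted p = 0.000987). Within slides 1 and 2 the first fell by 1.14 and 1.02 on the log2 scale and the second by 0.91 and 0.80, and with normexp by 1.06 and 0.78. Whether these intervals overlap a ribosomal RNA repeat unit was not checked, so that these values cannot be assigned to a lincRNA rather than to ribosomal RNA.

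Further falls were spread over other chromosomes. At chr1:193815525-193825775, forward, C read -0.17, 0.35, -0.47, -0.50 and -0.29 and R -1.19, -1.15, -1.19, -1.23 and -1.25. The R arrays lay within 0.10 of each other, all below C, and the signal was 1.98-fold lower in R (1.59 to 2.48, limma adjusted p = 0.00192). At chr14:77511189-77522852, forward, C read -0.36, 0.05, -0.34, -0.20 and 0.03 and R -0.86, -0.85, -0.98, -0.91 and -0.93. This too separated the groups, at 1.67-fold lower in R (1.45 to 1.93, limma adjusted p = 0.00142). With normexp the fall was more than 1.5 times smaller in 2 of the 10, chr12:81221532-81232030 (-1.40 to -0.62) and chr18:75132417-75141201, reverse (-1.0 to -0.31). In 7 of the 10 largest falls the groups did not overlap, beside 13.7% of all tested probes with every R array below, and here too the choice of probes favours separation. The overlapping ones were chr12:81221532-81232030, forward, with a change of -1.40 and 2 of 5 R arrays above background, chr13:22110479-22116629, reverse, with -1.17, and chr8:35143801-35144482, forward, with -0.78. The last was the only one of the 20 that lost its call when a single array was left out, for 5 of the 10 arrays (adjusted p up to 0.0734). Without C replicate 5 and R replicate 1 together, the calls at chr12:81221532-81232030 (adjusted p = 0.0516), chr13:22110479-22116629 (0.0924), chr8:35143801-35144482 (0.0723) and chrX:92119889-92128492 (0.0695) were lost.

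**Figure D3:**
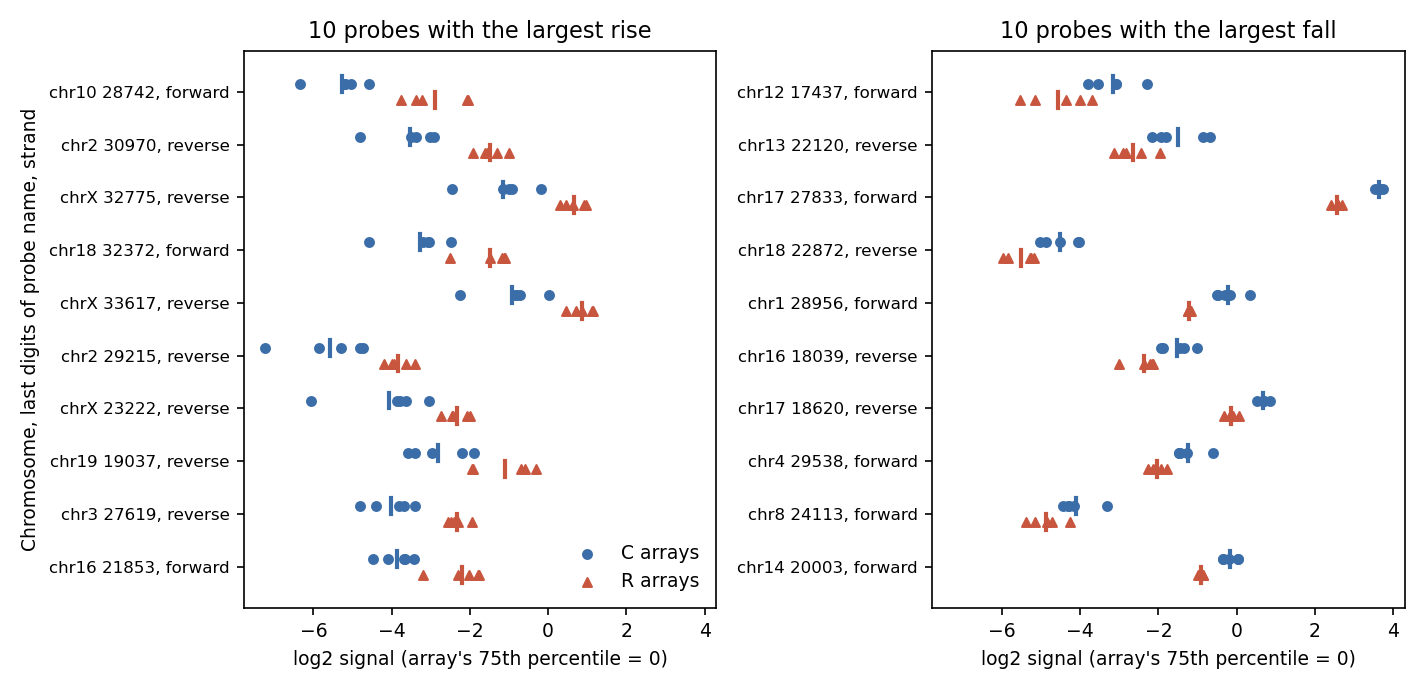
Log2 signal on each array for the 10 lincRNA probes with the largest rise (left) and the 10 with the largest fall (right), named by chromosome, last digits of the probe name and strand. Blue circles are C arrays, red triangles R arrays and short bars the group means; the chr17 forward probe falls from 3.65 to 2.57 with a narrow spread in both groups.

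In none of the 6 brightest lincRNA intervals did the brightest probe rise. Only that probe is counted here, and dimmer probes of these intervals, described with the strands, were called in both directions. The probe for chr17:15100982-15115630, reverse, read 6.62, 6.76, 6.52, 6.58 and 6.65 in C and 6.68, 6.70, 6.65, 6.68 and 6.58 in R. The groups overlapped, and the R over C ratio was 1.02 (0.93 to 1.13, limma adjusted p = 0.683). Among these 6 probes, 2 fell. That of chr14:78924115-78938125, forward, went from 6.13 ± 0.14 to 5.80 ± 0.04 (SD, n = 5 each, limma adjusted p = 0.00989). That of chr17:17481706-17482457, reverse, went from 6.11 ± 0.19 to 5.77 ± 0.09 (SD, n = 5 each, limma adjusted p = 0.0207). The second call was lost without R replicate 4 (adjusted p = 0.0504), and both were lost without C replicate 5 and R replicate 1 (adjusted p = 0.0576 and 0.0658). C replicate 2 was the highest C array for all 6, in contrast to its low values among the rises.

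Of the probes with gene names, those of 3 genes were tested and 1 rose. NEAT1, the paraspeckle scaffold, read 0.65, -0.59, 1.08, 1.23 and 0.68 in C and 1.65, 1.40, 1.42, 1.43 and 1.68 in R. C replicate 2 was lowest, all R arrays lay above all C arrays, and the rise was 1.88-fold (1.20 to 2.94, limma adjusted p = 0.0337). Its call was lost without any 1 of 7 arrays, C replicates 1 and 5 and each R replicate, with adjusted p up to 0.0707, and without C replicate 2 the change was 0.61 with an adjusted p of 0.00698. The call was also lost without C replicate 5 and R replicate 1 together (change 0.89, adjusted p = 0.106). TUG1 read -0.06, -0.67, 0.04, 0.05 and -0.18 in C and -0.09, -0.27, 0.07, -0.05 and 0.02 in R. The groups overlapped, with a ratio of 1.07 (0.87 to 1.32, limma adjusted p = 0.58). For KCNQ1ot1 the values were -2.99, -2.96, -3.18, -3.17 and -3.15 in C and -2.90, -2.72, -3.25, -3.06 and -2.91 in R, with a ratio of 1.09 (0.93 to 1.27, limma adjusted p = 0.354).

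The other 7 named lincRNA probes were not tested. Those of TSIX, the antisense partner of Xist, XIST, which coats the inactive X chromosome, the imprinted H19, HOTAIR of the HoxC cluster and the p53-induced lincP21 were above background on none of the 10 arrays. PINC was above background on 1 C and 3 R arrays and NRON on 1 C array.

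Other probes on the array target some of the same genes and did not always behave like the lincRNA probe. Both tested RefSeq probes of Neat1 rose, by 0.47 and 1.21 on the log2 scale (limma adjusted p = 0.0121 and 0.0156). The 4 tested RefSeq probes of Kcnq1ot1 rose by 0.86 to 1.15 (limma adjusted p between 0.00482 and 0.0127), unlike its lincRNA probe. The RefSeq probe of Tug1 changed by 0.38 (limma adjusted p = 0.0606). For H19, whose lincRNA probe was never above background, the RefSeq probe was above background on all 10 arrays, at -2.62 ± 0.44 in C and -3.10 ± 0.20 in R (SD, n = 5 each), and its change of -0.48 was not called (limma adjusted p = 0.0736). In a list of 33 known long non-coding RNA genes outside the lincRNA set, 26 genes had 36 tested probes, of which 14 (38.9%) rose and 4 (11.1%) fell, beside 21.4% and 17.1% of all tested probes, with a median change of 0.21. The 14 rising probes came from only 8 of the 26 genes, and 4 of these probes were from Kcnq1ot1, so the shares by probe are not shares of genes. The 8 genes with a rise were Airn, Gnasas1 (listed as Nespas), Kcnq1ot1, Lncpint, Meg3, Neat1, Norad and Peg13. Other tested probes of Lncpint and Norad were not called. Meg3, a maternally expressed imprinted gene, rose by 0.92 and 1.0 with its 2 tested probes (limma adjusted p = 0.0352 and 0.0394). The 4 genes with a fall were the snoRNA hosts Snhg1 (-0.39), Snhg3 (-0.21) and Snhg6 (-0.42), and the X-linked testis transcript Tsx (-0.69).

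Neighbouring intervals on the same strand held more rises than the lincRNA probes as a whole, but seldom rose throughout. Tested intervals no more than 50 kb apart were joined into runs, a definition set after the data were seen, which gave 1248 runs, 53 of them with 3 or more intervals. In 39 of the 53 at least 1 probe rose and none fell, in 4 at least 1 fell and none rose, in 2 both occurred and in 8 no probe was called. These runs held 206 tested probes, of which 86 (41.7%) rose and 8 (3.88%) fell, beside 27.8% and 7.20% of all tested lincRNA probes. At those overall rates unrelated probes would give a rise and no fall in 54% of such runs, where 73.6% had it. Every probe rose in only 3 of the 53, or 5.66% where the rates give 1.33%, and at least 50% of the probes rose in 19. These shares are descriptions, since probes of a run may lie in 1 transcript and are not independent. With the brightest probe alone for each of the 1248 runs, 24.7% rose and 7.85% fell, with a median change of 0.17.

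The run with the largest change lay at chrX:92119889-92157256, reverse, where all 5 probes of 4 intervals rose. Its brightest probe, at chrX:92139043-92140820, read 0.01, -2.26, -0.71, -0.80 and -0.86 in C and 1.12, 1.14, 0.47, 0.87 and 0.71 in R. The groups did not overlap for any of the 5 probes, and C replicate 2 was lowest in each. The rise of that probe was 3.44-fold (2.02 to 5.88, limma adjusted p = 0.0051). Over the run the median change was 1.74, and 1.24 without C replicate 2, when all 5 probes were still called. It was 2.02 within slide 1, where 3 of the 5 probes were called, and 1.42 within slide 2. With normexp it was 0.96, and all 5 were called.

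On chromosome 5, 2 adjoining forward runs rose. In chr5:14921737-15062725, 7 of 8 probes were called, and the mean log2 signal of the run was -0.87, -2.49, -0.84, -0.80 and -0.84 in C and 0.28, -0.04, -0.19, -0.05 and 0.15 in R. C replicate 2 was far below the other C arrays, which lay within 0.07 of each other. The median change was 1.16, 0.79 without C replicate 2 and 1.01 with normexp, with 8 of 8 probes called in both. In chr5:15146475-15223375 all 3 probes rose, with a median of 1.10, or 0.68 without C replicate 2 and 0.66 with normexp. Another forward run, at chr5:113769776-113772326, held 7 probes of 6 short intervals with a median of 0.93. Of these probes 3 were called, and 7 without C replicate 2 with a median of 0.57.

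Short intervals in chr15:74474704-74485279, forward, also rose together, with 7 of 8 probes called and a median change of 0.94. The mean log2 signal of the run was -3.78, -4.42, -3.47, -3.18 and -3.32 in C and -2.58, -2.57, -2.77, -2.51 and -2.77 in R. The groups did not overlap, and the median change was 0.74 without C replicate 2, 1.47 on slide 1, 0.51 on slide 2 and 0.53 with normexp. One of its probes, chr15:74476233-74476296, is the one above background on R arrays alone. All 3 probes in chr3:95443575-95462543, reverse, rose with a median of 1.04, or 0.53 with normexp. The other longer runs were mixed. On the reverse strand, 4 of 6 probes rose in chr16:89961600-90127636 (median 0.63), 2 of 6 in chr14:62254361-62308286 (0.45) and 2 of 5 in chr2:75444518-75497268 (0.49), with 0 falls. In chr13:28477490-28985604, reverse, 2 of 6 rose and 1 fell (0.33). In chr6:31017987-31293337, forward, 1 of 5 probes fell, 0 rose and the median change was -0.32. Without C replicate 5 and R replicate 1 the called probes were 3 of 5 in the chrX run, 4 of 8 in the first chromosome 5 run, 0 of 3 in the second, 1 of 7 in the last, 5 of 8 in the chromosome 15 run and 0 of 3 in the chromosome 3 run.

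**Figure D4:**
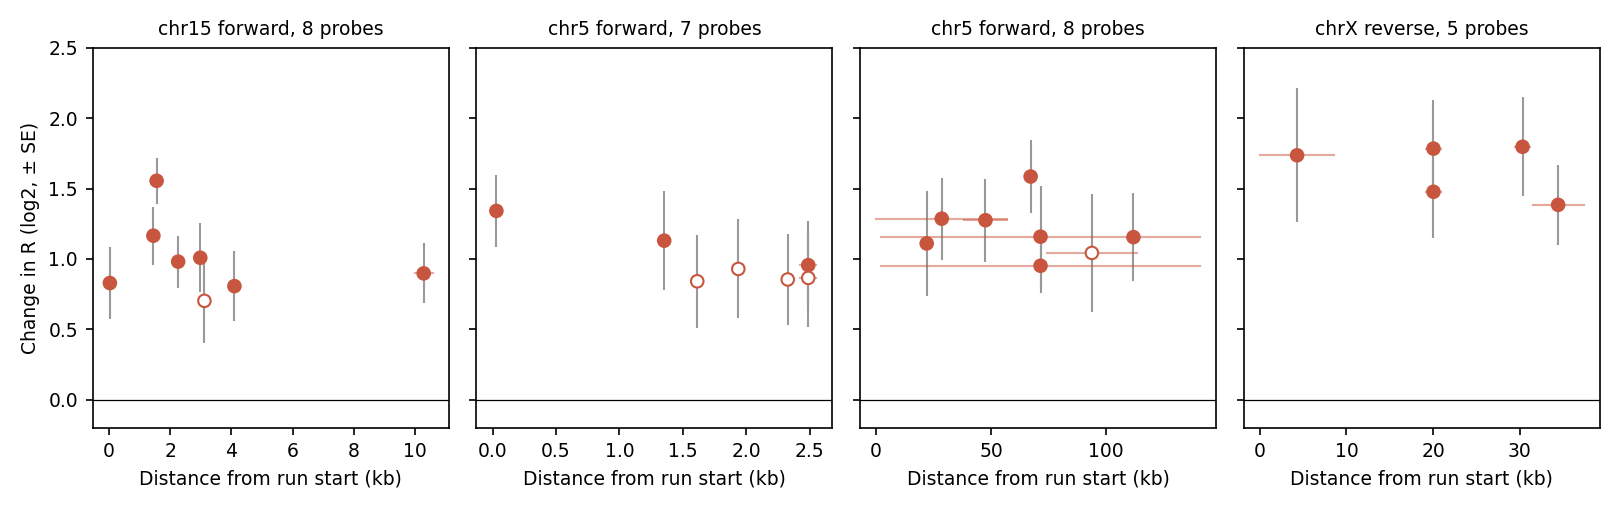
Change in R (log2, with SE) of each tested probe in 4 runs of neighbouring lincRNA intervals, against the distance of the interval's middle from the start of the run in kb; horizontal lines span the intervals, filled points were called higher and open points were not called. The 4 runs were picked among those that rose, after their values were seen, and longer runs with mixed changes or falls are not shown. All points therefore lie above 0, between 0.70 and 1.80, and the chr15 probe at 1.55 was not above background on any C array.

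Probes of the same interval and strand mostly changed in the same direction, while opposite strands shared a direction about as often as unrelated probes would. For 104 interval strands with 2 or more tested probes, all probes had the same sign in 76 (73.1%), all were called the same way in 15 and probes were called in opposite directions in 2. The median range between such probes was 0.25. Since 69.0% of tested lincRNA probes had a positive change, unrelated probes would share a sign in 54.8% of these strands. Of 832 intervals probed on both strands, 176 were tested on both, 155 on the forward strand alone, 204 on the reverse strand alone and 297 on neither. Among the 176, the changes had the same sign in 101 (57.4%), where unrelated pairs would in 57.2%. Both strands rose in 9, both fell in 1, the calls were opposite in 7, a single strand was called in 79 and neither in 80. Pearson's r of the changes was 0.125 over these 176 intervals, a description only, since both strands share the arrays.

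Intervals called on both strands show each pattern. At chr12:33606225-33638225 the forward and reverse probes rose alike, by 1.02 and 1.0, and at chr8:73645975-73696275 by 1.33 and 1.07. In contrast, chr12:77544397-77564122 rose by 1.39 forward and fell by 0.50 reverse, and chr5:26323150-26357875 rose by 1.11 forward and fell by 0.55 reverse. The bright forward probe of chr14:78924115-78938125 fell by 0.33 while its dim reverse probe rose by 0.82. These 5 intervals were picked after their values were seen. The only interval that fell on both strands was chr6:54591416-54597566, by 0.22 and 0.37. It is one of the 6 intervals whose weaker strand was brightest. Among the others, chr14:20893694-20903726 fell on its dimmer forward strand by 0.27 (limma adjusted p = 0.0334) and chr6:145647711-145756861 rose on its forward strand by 0.18 (limma adjusted p = 0.0396). These 4 calls were fragile: leaving out 1 array ended the first for 7 arrays forward and 4 reverse, that on chromosome 14 for 7 and the rise for 8, with adjusted p up to 0.0958. All 4 were lost without C replicate 5 and R replicate 1 (adjusted p between 0.0739 and 0.159). No strand of chr12:73838608-73862621, chr7:108209996-108216032 or chr6:135294099-135300310 was called. The interval with the most tested probes was chr17:46972160-46997919, where 1 of 4 fell, by 0.36 (limma adjusted p = 0.0205, and 0.0717 without C replicate 5 and R replicate 1). Another 36 intervals had 3 tested probes, of which the first in chromosome order was chr1:175654606-175672031. There the 3 probes changed by -0.39, 0.30 and -0.08 and none was called.

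**Figure D5:**
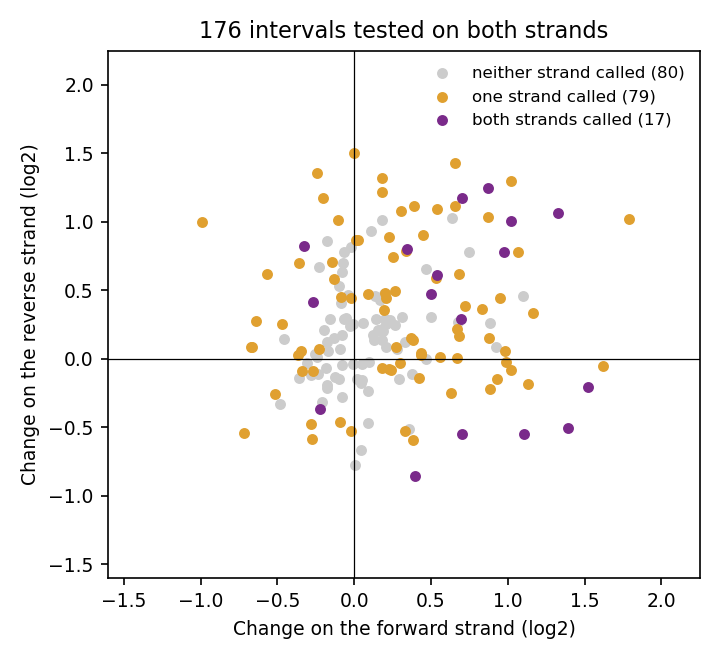
Change in R (log2) on the forward strand against that on the reverse strand for the 176 intervals tested on both; where a strand had several probes its brightest is shown. Of 17 intervals called on both strands (purple), 9 lie in the upper right, 1 in the lower left and 7 in the other quadrants.

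By position and length the lincRNA probes varied without a chromosome or class in which falls outnumbered rises. The share of tested probes that rose was largest on the X chromosome (39.7% of 63) and chromosome 5 (36.2% of 127) and smallest on chromosome 11 (17.3% of 75). On chromosome 15, 26 of 81 rose and 0 fell, while chromosome 12 had the largest share of falls (14.1% of 78). Forward and reverse probes were alike, with 28.1% and 27.4% higher. Intervals up to 1 kb had 33.7% higher and 6.06% lower, and those over 50 kb 25.6% and 11.5%. Shares over all tested probes of each chromosome were not taken, so the ranking is not read as particular to lincRNA probes. Neighbouring and overlapping intervals may share a transcript, as in the X chromosome run with its 5 rises, so these shares are descriptions.

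In the authors' deposited table of 2266 probes, 78 were lincRNA probes, 52 with a positive and 26 with a negative log2 ratio, each with a q-value of 0.515. All 78 were tested here, and 77 had the same sign as in the authors' deposited table. Of the 78 probes 35 were called, beside 597 of all 1708 tested lincRNA probes and 13059 of all 33851 tested probes. Those ratios came from the same arrays, with C replicate 5 and R replicate 1 on opposite sides, so the shared sign is no independent support.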

How the data were processed

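RNA of single testes was measured on 1-colour Agilent mouse arrays, 1 per animal (5 C, 5 R). The authors deposited scanner intensity values, made with Agilent Feature Extraction (version 12.0.3.1 in the submitters' processing notes). Inside each array, per the file headers, background was subtracted and trends were removed, with no normalisation between arrays, and probes were annotated on mm9. The authors' deposited table holds log2 ratios, p-values and q-values; its 10 per-sample columns were not used.

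Control and outlier spots were left out, spots of a probe averaged, and the 75th percentile over the array's non-control spots subtracted from log2 intensity. Testing took probes flagged well above background on 5 or more of 10 arrays and used limma 3.58.1 (lmFit, eBayes, 2-sided) in R 4.3.3, with Benjamini-Hochberg adjustment over 33851 probes, and 2 were dropped for missing values. The fit was tested on simulated data. No spot was saturated. The normexp alternative (offset 50) used median spot signals, since mean signals were not in the files.

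Members and lists were chosen with earlier results of these data known. Named probes are the 10 largest called changes in each direction past the study's fold (brighter group above background throughout, brightest probe per interval and strand), the 6 brightest intervals, the 6 brightest on both strands and the 2 with most tested probes (36 tied for the second place, taken in chromosome order). Runs and gene-named probes were added after values were seen. The number of arrays limits the precision, and the labels name 2 RNA kits without saying which served each testis.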

Additional observations from a re-analysis of the deposited data

Results flagged for a closer look

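In 100 groups of 5 arrays, formed by the named lincRNA probes and the summed measures, 1 array lay far from the other 4 in 13, where chance gives about 5%. C replicate 2 was that array in 10 of the 13. Its median deviation over tested lincRNA probes was -0.30, and -0.33 after that of NM_ probes of equal signal was taken off. Among rising probes it was low at chrX:92119889-92128492, with -6.07. Among falling probes it was high at chr4:135138014-135174889 (-0.61) and chr8:35143801-35144482 (-3.31).

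The interval chr12:73838608-73862621, bright on both strands and not called on either, had C replicate 2 high at 5.15 forward and 5.80 reverse. Of the 4 tested probes at chr17:46972160-46997919, the interval with the most tested probes, C replicate 2 was high on 2 forward probes (1.41 and -0.56) and low on the reverse probe (-2.77). The first of these fell by 0.36 (limma adjusted p = 0.0205), and the reverse probe changed by 0.70 (limma adjusted p = 0.0796). On the remaining forward probe R replicate 2 was high, at -3.16.

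R replicate 5 was low on a rising probe, chr18:69923410-69965360 (-2.51), and on a falling one, chr16:8738782-8830148 reverse (-3.02).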

How the results depend on the processing

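More lincRNA probes rose than fell in every setting that made calls, but with array medians the counts were close, at 317 and 264. The median change of lincRNA probes was 0.11 with normexp. With array medians it was 0.0024 (NM_ probes -0.23), with 264 lower and NM_ shares of 7.46% higher and 33.9% lower, and with quantile normalisation 0.072 (NM_ -0.15) with 204 lower. Without a filter 70 fell and 11.0% were called, and NM_ probes had 10.9% called, 5.23% higher, 5.72% lower and a median of 0.16. On slide 1 alone the median was 0.30. On slide 2 alone, and with C replicate 5 and R replicate 1 exchanged as in the authors' deposited table, limma called 0 higher and 0 lower, 0% of lincRNA and of NM_ probes, with 520 and 102 lincRNA probes at an unadjusted p under 0.05 and medians of 0.18 and 0.14. With both left out, 200 rose and 53 fell (14.8% called), and NM_ probes had 18.4% called, 7.38% higher and 11.0% lower. The brightest probe of each run gave 308 rises. The intervals tested on both strands numbered 98 where all 10 arrays had to be above background. Leaving out 1 array gave 304 (without R replicate 1) to 517 (without C replicate 2) rises, 72 (without R replicate 4) to 118 (without C replicate 4) falls and 22.6 to 36.5% called, with medians of 0.16 to 0.23.

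Over 46 named probes and all alternatives, 921 values kept direction and call, 127 lost the call, 12 gained one and 34 moved without a call. The forward probe of chr6:145647711-145756861, which rose by 0.18 (limma adjusted p = 0.0396), reversed to -0.024 (adjusted p = 0.843) with array medians. All 20 largest changes lost their call on slide 2 alone, where none of the 33851 probes was called, although 5 of them were at least as large there, with rises of 0.59 to 1.75 and falls between -2.08 and -0.39. With the exchange they also lost their call, and all 20 were smaller. The call at chr8:35143801-35144482 was also lost with normexp and without a filter, and on slide 1 alone those at chrX:92119889-92128492 (change 2.24, adjusted p = 0.062) and chr19:5834117-5835940 (1.78, 0.0516), both larger than over all arrays, and chr18:75132417-75141201 (-0.61, 0.0797), which was smaller. The cause was not tested. No paired analysis was possible because the labels do not pair the animals. With 10 arrays and 38.3% of the probes above background on 5 or more, nothing is said of change in the rest.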
